A study of Mus musculus with 629 samples.

Results

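The comparison covered brain macrophages and microglia of mice with the wild-type (WT) Notch3 genotype. Cells were taken by their deposited labels: Notch3 genotype WT, on plates 059s, 529s and 530s, labelled Macrophages (211 cells) or Microglia (79 cells). These 290 cells were part of 629 in the series. Each plate held both cell types, so macrophages were compared with microglia inside each plate. Plate 059s held 47 macrophages and 44 microglia, plate 529s held 26 and 15, and plate 530s held 138 and 20.

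All cells came from the brain of adult C57BL/6 mice, and the labels described a reporter line, SM22-Cre;Rosa26-stop-tdTomato, in which Cre from the SM22 (Tagln) promoter of smooth muscle switches on a red fluorescent protein. Single cells had been sorted by fluorescence into multi-well plates and sequenced by SMART-seq2, a full-length method without molecular identifiers. The sorting gate, the animals and the way in which the cell type labels were given were not stated, and the labels may rest on the same counts. Each cell type was therefore treated as 1 sample on each plate, no test was run, and every difference below is a description of these 6 pools of cells.

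Microglia are the resident macrophages of the brain parenchyma, and perivascular and other border macrophages lie along the vessels and in the meninges. Both arise from early embryonic precursors and depend on the receptor Csf1r. Microglia keep their identity through TGF-beta signalling and the transcription factor Sall1, and sense nucleotides through P2ry12, whereas border macrophages are known for scavenger receptors such as Mrc1 (CD206) and Cd163 and for the hyaluronan receptor Lyve1.

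Counts were summed over the cells of 1 type on 1 plate and scaled to counts per 1000000 (CPM), without the spike-in RNAs and without Rn18s, the 18S ribosomal RNA. The 6 pools held between 3210078 and 35356083 counts. A gene was measured when its mean over the 6 pools was at least 20 CPM, which 6515 genes reached. Median counts per cell were lower in macrophages than in microglia on each plate (361651 against 449093, 156646 against 192577 and 214869 against 265742, in the order 059s, 529s, 530s). With each cell thinned to 50000 counts, the median number of genes per cell was still lower in macrophages, at 2902 against 3846, 2615 against 3176 and 2563 against 3162.5. Xist, transcribed from the inactive X chromosome, reached 738 CPM (macrophages) and 830 CPM (microglia) on plate 530s and at most 1.19 CPM in the 4 other pools, so plate 530s also differed from the others in the sex of its mice. Plates and animals cannot be told apart.

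Differences were far larger for microglial genes than for macrophage genes. A gene was called when it lay at least 2-fold apart in the same direction in all 3 plates, on CPM + 1, and had a count in at least 25% of the WT cells of the higher type. By this rule 74 genes, 1.14% of those measured, were higher in macrophages, and 202 genes, 3.1%, were higher in microglia. The split was 50 and 374 with the median of cells in place of the sum, 115 and 169 without the top cell of each gene in each pool, and 203 and 301, 166 and 293, or 162 and 340 with plate 059s, 529s or 530s left out. Microglial genes were the larger group under these settings, but not when the 50 microglia with macrophage marker sums in the range of macrophages, described below, were left out: the split was then 264 and 197. At a limit of 4-fold these numbers became 3 and 92, and 27 microglial genes but 0 macrophage genes lay at least 16-fold apart in every plate. Regardless of size, 1350 genes (20.7%) were higher in macrophages in all 3 plates and 1056 genes (16.2%) were higher in microglia. Over all measured genes, the median log2 ratio stayed near 0, at 0.07, -0.07 and 0.15.

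A group of the genes called in microglia was close to absent from macrophages. Of the 202 microglial genes, 40 were at or under 10 CPM in every macrophage pool, and of the 74 macrophage genes 0 were at or under 10 CPM in every microglia pool, some by a small margin: Samd9l was at 10.6, 9.03 and 2.91 CPM there. Most microglia also carried macrophage marker RNA, as described below. In cells thinned to 50000 counts, the median microglial gene was counted in 58.4% of microglia and 12.6% of macrophages, and the median macrophage gene in 39.6% of macrophages and 29.9% of microglia. The plot of plate ratios shows the difference in reach: microglial genes extend far from the origin in every plate and most macrophage genes stay near the 2-fold limit.

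**Figure D1:**
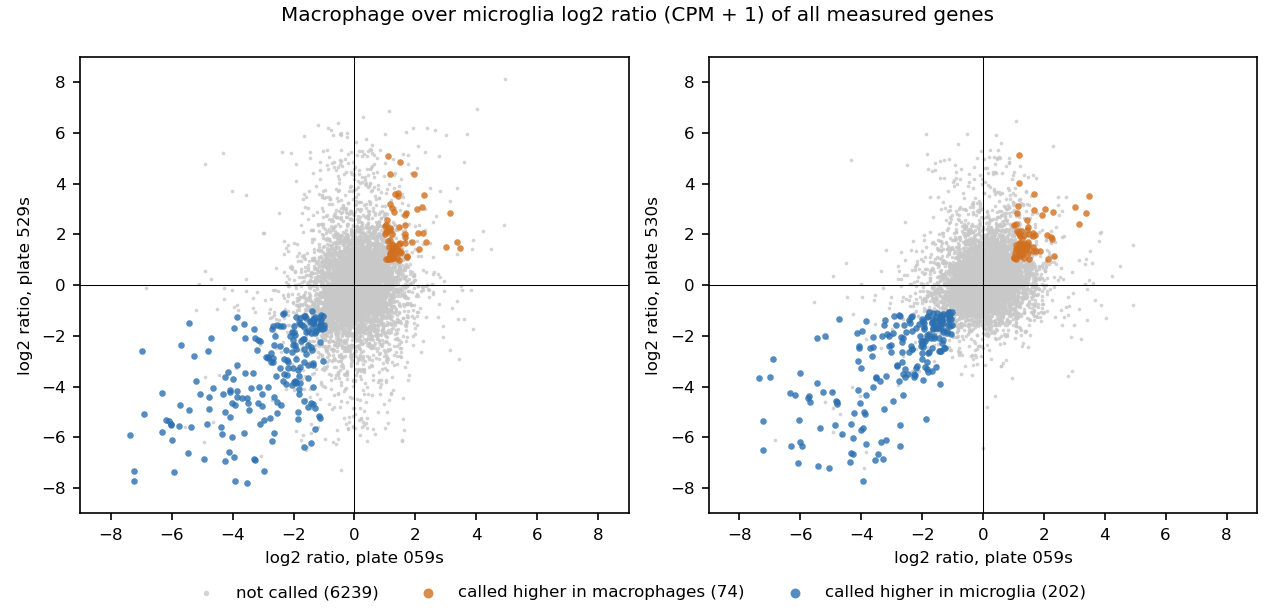
Each point is 1 of 6515 measured genes, placed by its log2 ratio of macrophages over microglia (on CPM + 1) in plate 059s on the horizontal axis and in plate 529s (left) or 530s (right) on the vertical axis. The 202 genes called higher in microglia (blue) reach much further from 0 than the 74 called higher in macrophages (orange), and 6239 genes were not called (grey).

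Markers of the 2 cell types were checked against the labels in single cells. The summed CPM of 18 microglia markers separated the labels almost completely: only 7 of 211 macrophages reached the level of the lowest microglial cell of their plate. Its median was 11280, 4528 and 10110 in macrophages against 52480, 34380 and 42260 in microglia. The summed CPM of 18 macrophage markers did not separate them: its median was 32670, 40630 and 35780 in macrophages and 16520, 18480 and 10110 in microglia, and 50 of 79 microglia (34 of 44, 6 of 15 and 10 of 20) reached the level of the lowest macrophage of their plate. That level was 9104, 20600 and 10200 CPM, set by 1 macrophage on each plate, so the count of 50 depends on these cells. The remaining 29 microglia ranged down to a sum of 120.9 CPM. Most cells labelled Microglia thus carried macrophage marker RNA beside that of their own list. The part of this RNA in the differences below was not tested.

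**Figure D2:**
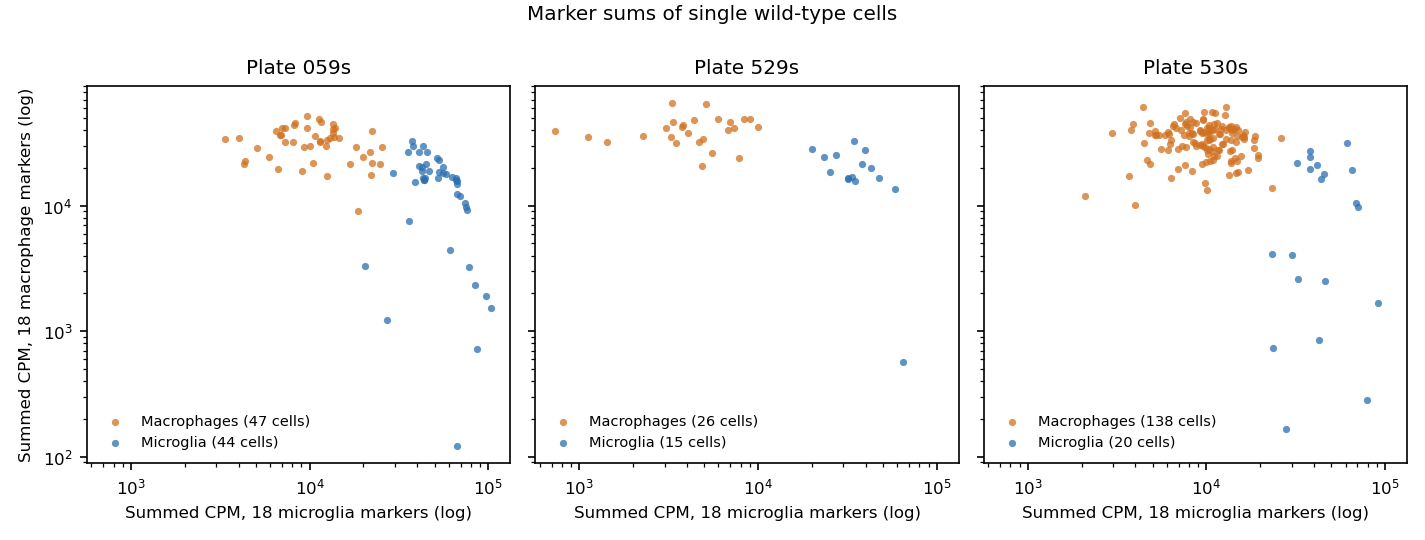
Each point is 1 WT cell, placed by its summed CPM of 18 microglia markers (horizontal, log axis) and of 18 macrophage markers (vertical, log axis), with 1 panel per plate. Macrophages (orange) and microglia (blue) part along the horizontal axis, and along the vertical axis 50 of 79 microglia lie within the range of macrophages of the same plate.

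Of 18 microglia markers, all were measured, 17 were higher in microglia in every plate and 16 were called. The median log2 ratio of the list was -3.45, -3.43 and -3.44, about the same on each plate. Tmem119, a transmembrane protein used to tell microglia from other macrophages, was at 128, 182 and 35.8 CPM in macrophages and 5581, 5561 and 5223 CPM in microglia. The smallest of the 3 ratios was 30.43-fold, on plate 529s. Olfml3, a secreted olfactomedin-like protein, was at 93.6, 28.9 and 62.9 CPM against 2724, 1324 and 2926 CPM. Sparc, a secreted matrix-binding glycoprotein, was at 353, 142 and 54.6 CPM against 7135, 2826 and 5505 CPM. For these 3 genes every microglia pool lay above every macrophage pool. Here and below, most genes were named because they were called, so pools that lie apart follow in part from that choice. The share of all measured genes with pools apart was not counted.

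P2ry12, the ADP receptor through which microglial processes follow released nucleotides, was at 396, 258 and 263 CPM in macrophages and 6325, 3394 and 2535 CPM in microglia. Selplg, the selectin ligand PSGL-1, was at 215, 211 and 206 CPM against 3676, 3772 and 3671 CPM. Selplg differed little between plates, with ratios between 17.02-fold and 17.79-fold. Exons of P2ry12 overlap those of Med12l, and whether the counting used strand was not given in the sources used here. Crybb1, a crystallin also transcribed in microglia, and the surface receptor Trem2 were called with smaller ratios, down to 2.7-fold and 2.06-fold. Bin1, a membrane-bending adaptor, was higher in microglia in each plate without reaching 2-fold in all (408, 326 and 273 against 674, 393 and 834 CPM). Fcrls, an Fc receptor-like molecule often listed as microglial, did not part the cell types: it was at 4762, 1115 and 4640 CPM in macrophages and 6033, 1694 and 4543 CPM in microglia.

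Of 18 macrophage markers, 17 were measured, 14 were higher in macrophages in every plate and 2 were called, with list medians of 0.87, 0.99 and 1.68. F13a1, the catalytic subunit of coagulation factor XIII, was at 3192, 5810 and 3694 CPM in macrophages and 1394, 2474 and 1151 CPM in microglia. Cbr2, a carbonyl reductase, was at 2778, 2711 and 2569 CPM against 1098, 926 and 646 CPM. Mrc1, the mannose receptor, was at 6564, 6915 and 6535 CPM against 3401, 4865 and 2073 CPM and fell short of 2-fold in plates 059s and 529s. In all 3 genes each macrophage pool exceeded each microglia pool, yet microglia pools held F13a1 and Mrc1 above 1000 CPM.

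Further markers are given with their values, and not all of them kept a direction. Cd163, the hemoglobin-haptoglobin receptor, was at 1216, 4100 and 1545 CPM against 850, 1834 and 561 CPM, and Lyve1 at 1755, 8265 and 2355 CPM against 962, 2314 and 664 CPM. Stab1, a scavenger receptor of the stabilin family, was at 6625, 6464 and 8516 CPM against 3500, 4029 and 2110 CPM. Dab2, an endocytic adaptor, was at 5027, 3132 and 4509 CPM against 2218, 1572 and 1759 CPM, with a smallest ratio of 1.99-fold, just under the limit. Cd209f, a lectin of the DC-SIGN family, went both ways, at 401, 101 and 748 CPM in macrophages and 316, 122 and 193 CPM in microglia. Cd38, an NAD-consuming ectoenzyme, and Cd209b, another DC-SIGN relative, also lacked a common direction, with log2 ratios of 1.70, -0.07 and 2.40 and of -1.88, -0.52 and 5.96. Lilra5, a leukocyte immunoglobulin-like receptor, was the marker that did not reach 20 CPM.

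When the 50 microglia within the macrophage range were left out, an alternative chosen after seeing the data, 10, 9 and 10 microglia remained on the 3 plates. The calls became 264 in macrophages and 197 in microglia, 53 and 144 of them among the original calls, and the median over all measured genes moved from 0.07 to 0.24 (log2, all 3 plates pooled). The choice used 18 macrophage markers, so a larger ratio of those markers follows from it and is no result.

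Among the 12 genes called in macrophages with the largest smallest ratio were Timd4, Fgfr1, B3gnt8, Zc3h13, Tom1l2, Iqgap2, Wfdc17, Samd9l, Fcna, Tmem189 and Aldh7a1. Timd4, a receptor for phosphatidylserine on dying cells, was at 87.5, 94.9 and 70.7 CPM in macrophages and 8.97, 12.5 and 12.4 CPM in microglia. Summed over plates this was 78.1 CPM (95% Poisson interval 75.9 to 80.4) against 10.0 CPM (8.9 to 11.3), intervals that cover counting error only. Timd4 came from a minority of cells, with a count in 26.1% of macrophages and 16.5% of microglia. Its call was lost in cells thinned to 50000 counts, where 23.3% of macrophages had a count, with the median of cells, and without plate 530s. Its smallest log2 ratio was 1.28 in thinned cells and 2.83 without plate 530s. Among the 21 macrophage genes named here, 4 (Aldh7a1, Cbr2, F13a1 and Fcna) stayed called under all 12 alternatives that kept the limits of the rule, 17 were lost with the median of cells and 11 in thinned cells. Of the 50 microglial genes named, 28 stayed called under all 12. Fgfr1, a fibroblast growth factor receptor, was at 114, 195 and 75.1 CPM against 26.8, 23.7 and 8.56 CPM, with a count in 36.5% and 21.5% of cells. Fcna, the ficolin that recognises microbial sugars and starts the lectin pathway of complement, was at 471, 3389 and 1310 CPM against 148, 492 and 106 CPM. Macrophage pools of Fcna differed more among plates than the cell types did on plate 059s, so the groups overlapped: microglia of plate 529s exceeded macrophages of plate 059s.

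Aldh7a1, an aldehyde dehydrogenase of lysine breakdown, was steadier, at 173, 213 and 206 CPM against 54.4, 67 and 52.3 CPM, and was detected in 65.4% of macrophages and 48.1% of microglia. Iqgap2, a scaffold of the actin cytoskeleton, was at 121, 48.1 and 36.8 CPM against 24.5, 10.9 and 9.65 CPM. The interferon-induced Samd9l was at 36.4, 72.1 and 29.9 CPM against 10.6, 9.03 and 2.91 CPM. Zc3h13, a subunit of the complex that methylates adenosine in RNA, was at 50.1, 79 and 38.3 CPM against 12.3, 2.8 and 4.73 CPM. Pools of these 4 genes did not overlap between cell types. Exons of B3gnt8, a glycosyltransferase, overlap Bckdha, and exons of Tmem189 overlap Cebpb, so their counts could include the neighbour.

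Wfdc17, a small secreted whey acidic protein, was at 17, 37 and 66.9 CPM against 0.738, 10.6 and 8.56 CPM, with 63.5% of the macrophage counts from 1 cell, and its call was lost without the top cells. Its summed level thus rested largely on 1 macrophage. Of 12 oligodendrocyte markers 4 were measured, 3 of them higher in macrophages in each plate, with summed levels of 632 to 1000 CPM in macrophages and 362 to 570 CPM in microglia. Mbp, myelin basic protein, was at 542, 450 and 379 CPM against 292, 153 and 202 CPM and counted in fewer macrophages (78.2%) than microglia (92.4%). The part of myelin RNA from other cells was not tested.

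The 12 leading genes of microglia were Cd34, Slco4a1, Adora3, F11r, Olfml2b, Parvg, Il1a, Tmem119, Olfml3, Lat2, Orai2 and Whrn. Adora3, the adenosine A3 receptor, gave 3 counts in all 211 macrophages and 1773 counts in 79 microglia, or 0.0504 CPM (95% Poisson interval 0.0104 to 0.147) against 64.1 CPM (61.1 to 67.1). Microglia of the 3 plates were at 63.9, 43 and 77 CPM, and macrophages of plates 059s and 529s at 0. Exons of Adora3 overlap those of Tmigd3, so its counts could include the neighbour. The organic anion transporter Slco4a1 likewise gave 3 counts in macrophages and 2356 in microglia, which were at 91.4, 54.8 and 81.2 CPM. Both genes were thus barely present in macrophages at this depth. Cd34, a sialomucin best known from blood stem cells and endothelium, was at 0.0524, 0.396 and 0.311 CPM in macrophages and 63.2, 233 and 105 CPM in microglia, with a count in 40.5% of microglia. Olfml2b, a relative of Olfml3, was at 0, 0 and 0.255 CPM against 66.6, 40.2 and 162 CPM.

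F11r, the junctional adhesion molecule JAM-A, was at 21.8, 12.1 and 16 CPM in macrophages and 940, 627 and 848 CPM in microglia, and had a count in 100% of microglia and 27.0% of macrophages. Parvg, which links integrins to actin, was at 0.682, 0.198 and 8.46 CPM against 253, 255 and 382 CPM. Il1a, the cytokine interleukin-1 alpha, was at 0.157, 0.198 and 1.22 CPM against 75, 53.3 and 86.9 CPM. In each of these genes all microglia pools lay far above all macrophage pools, which their choice by the smallest ratio favours. Orai2, a store-operated calcium channel subunit, was at 0.157, 0.198 and 5.74 CPM against 61.9, 55.1 and 146 CPM, and 90.8% of its few macrophage counts came from 1 cell. Among genes outside all lists, Adgrg1, an adhesion receptor known as GPR56, was at 36.6, 18.2 and 6.76 CPM against 781, 917 and 979 CPM, and Abi3, an actin regulator, at 5.4, 0.396 and 1.41 CPM against 129, 80.7 and 107 CPM.

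**Figure D3:**
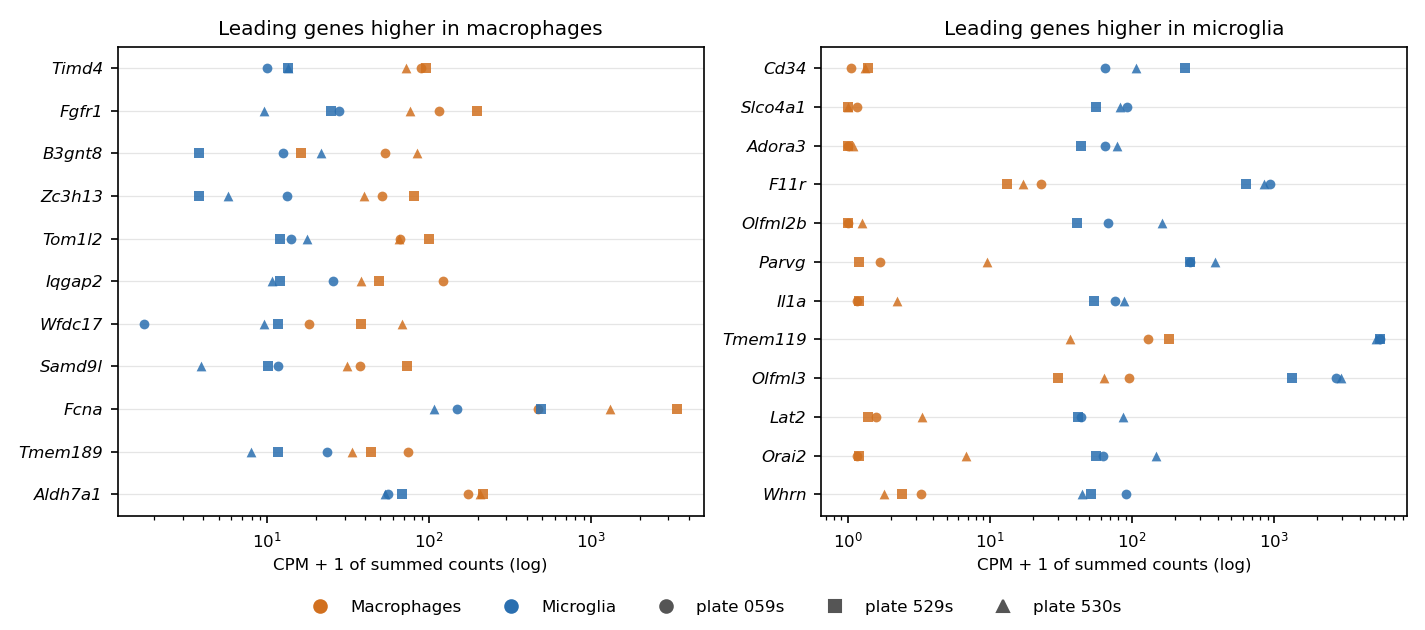
The level of leading genes in each direction is shown as CPM + 1 of summed counts (horizontal, log axis), with 1 point per pool, macrophages in orange and microglia in blue and the plate by the symbol. Leading macrophage genes part by a few fold, as Timd4 with 70.7 to 94.9 against 8.97 to 12.5 CPM, and leading microglial genes such as Tmem119 by 30.43-fold or more.

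Transcription factors of the lineage were mostly shared. Of 24 in the list, 20 were measured, 4 were higher in macrophages and 8 in microglia in every plate, and the called ones were Sall1 and Sall3, zinc finger factors of the spalt family. Sall1 was at 32.6, 0.594 and 1.02 CPM in macrophages and 392, 356 and 236 CPM in microglia. Sall3 was at 4.04, 0.198 and 0.141 CPM against 71.3, 9.66 and 86.9 CPM. Sall1 had a count in 88.6% of microglia and 15.6% of macrophages, and 45.1% of its macrophage counts came from 1 cell. Spi1, encoding PU.1, the master factor of myeloid cells, differed by less than 1.5-fold in each plate and not in 1 direction (log2 ratios 0.38, 0.50 and -0.16). Maf, a factor of resident macrophages, was higher in macrophages in each plate (0.45, 0.66 and 0.94), and Irf8, required for microglia, was higher in microglia in each (-0.10, -1.02 and -0.62), both short of the limit.

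TGF-beta and Csf1 signalling leaned towards microglia. Of 19 genes 13 were measured, 2 were higher in macrophages and 7 in microglia in every plate, and 3 were called, all in microglia. Over all measured genes, 3.1% were called in microglia. Tgfbr1, the type I receptor, was at 89.4, 41.2 and 72 CPM against 642, 685 and 642 CPM, with a count in 48.8% of macrophages and 100% of microglia. Csf3r, the receptor of granulocyte colony-stimulating factor, was at 58, 65.9 and 87 CPM against 293, 498 and 507 CPM. Itgav, the integrin chain that helps to release latent TGF-beta, was at 29.2, 4.95 and 14.3 CPM against 114, 83.2 and 42.1 CPM. Pools of all 3 were apart. Csf1r itself was only slightly higher in microglia, at 10914, 12073 and 14209 CPM against 14875, 16324 and 18914 CPM, and the type II receptor Tgfbr2 did not keep 1 direction.

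Purinergic signalling gave 3 microglial calls among 7 measured genes of 14: Adora3, P2ry12 and P2ry13. Over all measured genes, 3.1% were called in microglia. P2ry12 and P2ry13 are also in the microglia marker list, so their calls are counted there too. P2ry13, another ADP receptor, was at 533, 344 and 482 CPM against 2034, 1994 and 1529 CPM. The ectonucleotidase Entpd1 (CD39) was higher in microglia in every plate by less than 2-fold, with log2 ratios of -0.66, -0.29 and -0.46. P2rx4, an ATP-gated channel, was the only measured gene of the list higher in macrophages in every plate (0.75, 0.14 and 0.85), and the UDP receptor P2ry6 was close to equal (0.00, -0.05 and 0.28).

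Scavenger receptors and lectins leaned towards macrophages, with 13 of 23 measured genes higher there in every plate, 2 higher in microglia, and 1 call on each side. The called macrophage gene was Clec10a, a galactose-type lectin, at 550, 1160 and 596 CPM against 257, 350 and 201 CPM. The called microglial gene was Siglech, a sialic acid-binding receptor that is also a microglia marker, at 169, 43.4 and 73.3 CPM against 1948, 971 and 906 CPM. All 6 measured genes of the Ms4a family, tetraspanning membrane proteins, were higher in macrophages in every plate and 0 were called. Ms4a6b was at 695, 1346 and 648 CPM against 460, 507 and 235 CPM. Iron and heme handling had 8 of 16 measured genes higher in macrophages in every plate, including the ferritin chains Fth1 and Ftl1, and 1 call in that direction, Hmox1. Hmox1, which splits heme, was at 593, 1464 and 719 CPM against 236, 543 and 259 CPM. The 1 call the other way was the endocytic receptor Lrp1, at 262, 159 and 249 CPM against 800, 1045 and 749 CPM.

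The list of coagulation and platelet-factor genes had 9 measured members, and 5 of the 9 were higher in macrophages in every plate. Its macrophage call was F13a1, which is also in the macrophage marker list. Its microglial call was F11r, which encodes the adhesion molecule JAM-A and not a clotting factor. Gas6, a vitamin K-dependent ligand that bridges dying cells to phagocytes, was at 2701, 2358 and 3517 CPM against 1554, 1240 and 1299 CPM, without reaching 2-fold in each plate. Lipid transport had Pltp, the phospholipid transfer protein, called in macrophages at 565, 480 and 797 CPM against 217, 172 and 258 CPM. Exons of Pltp overlap those of Ctsa. Apoe was higher in macrophages in each plate by less than 2-fold (51577, 76591 and 79229 against 31950, 41879 and 64676 CPM).

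The interferon response list had 10 of 17 measured genes higher in macrophages in every plate, 0 higher in microglia in every plate, and 2 calls, Rtp4 and Ifi27l2a. Rtp4, a chaperone of membrane receptors, was at 115, 163 and 80 CPM against 43.4, 76.6 and 27.1 CPM. Ifi27l2a, a small mitochondrial protein, was at 75.7, 346 and 65.2 CPM against 16.5, 129 and 31.7 CPM, with pools that overlapped across plates. The call of Ifi27l2a held in 5 of 12 alternatives, and that of Rtp4 was lost with the mean and the median of cells. Nuclear oxidative phosphorylation genes showed the same lean without any call: 29 of 54 measured genes were higher in macrophages in every plate and 0 in microglia, with medians of 0.25, 0.57 and 0.31. The mitochondrially encoded genes did not keep 1 direction, with medians of 0.31, 0.51 and -0.86, and ribosomal protein genes had medians of 0.11, 0.36 and -0.05.

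Adhesion was the group with most microglial calls beside the markers: 7 of 18 measured genes were called in microglia and 1 in macrophages. In every plate, 11 were higher in microglia. Over all measured genes, 3.1% were called in microglia, 1.14% in macrophages, and 16.2% were higher in microglia in every plate. Selplg, among the microglial calls, is also in the microglia marker list. Cd9 and Cd81, tetraspanins that organise membrane partners, were at 25.6, 0.396 and 14.3 against 410, 151 and 752 CPM and at 312, 149 and 190 against 1714, 1427 and 2159 CPM. Itgb5, the integrin beta chain that pairs with Itgav, was at 169, 118 and 110 CPM against 698, 750 and 583 CPM. Icam1, the ligand of beta-2 integrins, was at 48.2, 8.12 and 43.9 CPM against 174, 155 and 175 CPM, and Itgb2, the beta-2 chain, at 252, 202 and 331 CPM against 560, 595 and 990 CPM. Microglia pools lay above macrophage pools in each of these genes. The macrophage call was Emb, embigin, a chaperone of lactate transporters, at 62.5, 202 and 76.8 CPM against 4.69, 72 and 5.83 CPM, where microglia of plate 529s overlapped with macrophages of plate 059s.

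Uptake of apoptotic cells was split by gene. Of 16 measured genes, Timd4 was called in macrophages and Havcr2, Itgb5, Lrp1, Itgav and Elmo1 in microglia. The shares called over all measured genes were 1.14% and 3.1%. Itgb5, Lrp1 and Itgav are also counted in other lists given here. Havcr2 (TIM-3), like Timd4 a member of the TIM family of phosphatidylserine receptors, was at 0.629, 9.11 and 19.2 CPM in macrophages and 194, 345 and 152 CPM in microglia. The family thus had a member on each side of the comparison, with the limits given above for Timd4. Elmo1, which with Dock proteins activates Rac during engulfment, was at 318, 173 and 255 CPM against 820, 471 and 573 CPM. Mertk, the receptor of Gas6, was higher in microglia in every plate below the limit (-0.65, -1.18 and -0.28).

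Cathepsins and the list of MHC class II and costimulation genes leaned to microglia, and MHC class I genes did not. Among 13 measured cathepsins, legumain and cystatins, 7 were higher in microglia in every plate and 2 in macrophages, and Cst3, Ctss and Ctsd were called in microglia. Ctss, a cathepsin that trims the invariant chain, was at 2005, 2140 and 1665 CPM against 4972, 5062 and 4638 CPM. Cst3, the protease inhibitor cystatin C, was at 2209, 1507 and 1993 CPM against 8464, 3612 and 6551 CPM, and Ctsd, the aspartyl protease cathepsin D, at 3090, 2170 and 3888 CPM against 6208, 6993 and 11440 CPM. Ctsc, which activates serine proteases, was on the other side (0.95, 0.84 and 1.16). Of 7 measured genes for MHC class II and costimulation, Ctss and the peptide-loading chain H2-DMa were called in microglia. H2-DMa was at 33.5, 12.3 and 31.4 CPM against 134, 186 and 148 CPM, and its exons overlap Brd2. The lean did not extend to the class II chains H2-Aa, H2-Ab1 and H2-Eb1. These were at no more than 29.2 CPM in any pool, and none was higher in microglia in every plate. Cd74, the invariant chain, was higher in macrophages on plates 059s and 529s and in microglia on plate 530s (0.59, 0.47 and -3.19). The 14 measured genes for MHC class I and peptide loading gave 0 calls, with 5 higher in macrophages in every plate, 3 in microglia and medians of 0.13, 0.03 and 0.51. H2-D1, a class I heavy chain, was at 2261, 3897 and 2637 CPM against 1727, 1984 and 1532 CPM. Among 21 measured lysosomal genes 2 were called in microglia, among them the sulfatase Arsb at 750, 122 and 1091 CPM against 2164, 1081 and 2633 CPM.

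Among complement genes, the C1q chains were nearly the same in both cell types and others were not. Of 12 measured genes, 6 were higher in macrophages and 3 in microglia in every plate. Cfp had log2 ratios of 1.55, 0.79 and 1.64, and Itgam of -1.80, -0.74 and -0.97. The C1q chains C1qa and C1qb were at 7512, 8891 and 7345 against 8039, 7854 and 6892 CPM and at 8597, 13040 and 10150 against 9153, 13493 and 10691 CPM, with ratios of at most 1.13-fold. The 1 call was C4b, complement component 4, at 281, 1099 and 542 CPM in macrophages against 109, 457 and 255 CPM in microglia, with overlap between plates. It was lost with DESeq2 size factors (smallest log2 ratio 0.90), the mean (0.84) or median (0.64) of cells and in thinned cells (0.93). Of 18 measured Fc and immunoreceptors, Trem2 and the collagen receptor Lair1 were called in microglia. Trem2 was at 603, 448 and 738 CPM against 1320, 1079 and 1519 CPM, and its adaptor Tyrobp was close to equal (0.02, 0.44 and 0.05). Fcgrt, the neonatal Fc receptor, was higher in macrophages in each plate (0.98, 0.94 and 1.39).

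Chemokine and cytokine genes gave 3 calls, all in microglia, among them Il1a and Cx3cr1. Cx3cr1, the fractalkine receptor, was not absent from macrophages, at 2351, 1261 and 2303 CPM against 7576, 5550 and 6249 CPM. Of 18 measured innate sensing genes, 7 were higher in microglia and 2 in macrophages in every plate, and 0 were called, where the shares of all measured genes (1.14% and 3.1%) would also leave less than 1. Pdgfb, a platelet-derived growth factor chain known to recruit pericytes, was called in microglia at 15.2, 0 and 14.2 CPM against 49.8, 23.1 and 48.8 CPM, and the semaphorin Sema4d at 147, 115 and 107 CPM against 365, 433 and 483 CPM. Channels and transporters gave 5 microglial calls of 14 measured, among them the fructose carrier Slc2a5 (40.9, 0.396 and 11.6 against 630, 295 and 404 CPM), the potassium channel Kcnk13 (25.1, 36.2 and 41.8 against 78.8, 85 and 181 CPM) and the proton channel Hvcn1 (11.2, 33.1 and 28.9 against 103, 157 and 157 CPM). No gene of that list was higher in macrophages in every plate. Slc2a5 is also in the microglia marker list, and 3.1% of all measured genes were called in microglia.

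Genes known from disease-associated microglia were divided: Lyz2, lysozyme, was called in macrophages (7698, 8252 and 9212 against 3204, 3115 and 3716 CPM) and Trem2, Cd9 and Ctsd in microglia, among 17 measured. In the Notch pathway, 10 of 22 genes were measured and 1 was called, the Notch-modifying glycosyltransferase Mfng, at 70.5, 39.2 and 83.7 CPM in macrophages and 212, 145 and 224 CPM in microglia. Rbpj, the DNA-binding partner of cleaved Notch, was higher in macrophages in each plate (1.20, 1.31 and 0.86). Notch3 was at 4.04 CPM in macrophages of plate 059s, at 0.0527 CPM in microglia of that plate and at 0 in the 4 other pools. Both cell types therefore had almost no Notch3 counts in the wild type.

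Markers of some other cells were scarce, and those of others were not. None of the 13 mural cell, 10 fibroblast, 10 neuron, or 13 monocyte and neutrophil markers was measured, and mural markers summed to between 0.623 and 10.6 CPM per pool. Beside the oligodendrocyte markers given above, 3 of 12 endothelial, 3 of 11 astrocyte, 2 of 12 lymphocyte and 3 of 10 dendritic cell markers were measured. Their sums per pool were 518 to 1310, 89.3 to 370, 150 to 417 and 154 to 262 CPM, in this order. The source of this RNA was not tested. Immediate early and dissociation stress genes gave 0 calls among 16 measured, with medians of 0.69, -0.02 and -0.32. At the shares of all measured genes (1.14% and 3.1%) a list of this size would give few or no calls. The same holds for the MHC class I and Ms4a lists. Single members did differ: Klf2 was higher in macrophages in every plate (4.93, 2.38 and 1.60). On plate 059s Fos was at 544 CPM in macrophages against 175 in microglia, and Dusp1 at 8.71 against 47.6 CPM.

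**Figure D4:**
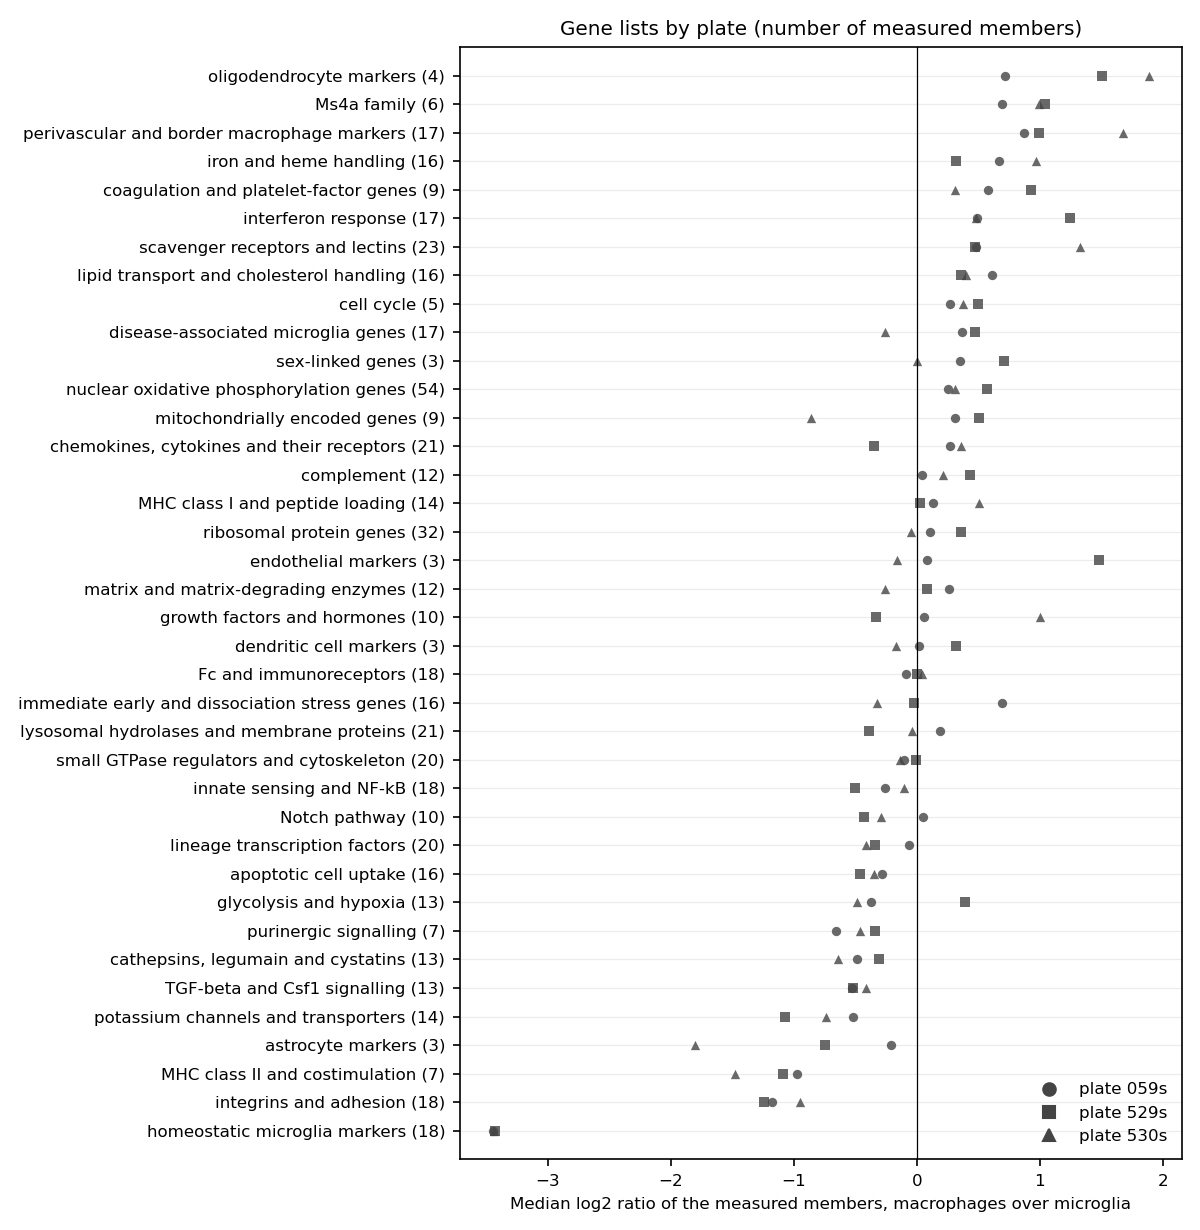
Each row is a gene list with the number of its measured members, and each point is the median log2 ratio of macrophages over microglia of those members in 1 plate. The microglia marker list stands alone near -3.4 in all 3 plates, and the macrophage marker list lies between 0.87 and 1.68.

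The same ratios were formed in cells that the WT comparison had not used: macrophages and microglia heterozygous (Het) for Notch3 on plates 056s, 524s and 529s, and Notch3 knockout (KO) cells on plates 060s and 524s, 5 pairs in all. Of the 202 genes called in WT microglia, 174 (86.1%) were higher in microglia in all 5 pairs, against 12.1% of measured genes, and 119 (58.9%) by at least 2-fold, against 2.76%. Of the 74 genes called in WT macrophages, 35 (47.3%) were higher in macrophages in all 5, against 9.56% of measured genes, and 4 (5.41%) by at least 2-fold, against 0.307%. The macrophage calls carried over less completely than the microglial calls. Among the leading macrophage genes, Timd4 had log2 ratios of 0.38, 5.60 and 3.32 in the Het pairs and 3.31 and 1.57 in the KO pairs. Tom1l2, Wfdc17 and Zc3h13 went the other way in 2 of 5. Fcna did so in the Het pair of plate 056s (-1.4), and B3gnt8 and Tmem189 in the KO pair of plate 524s (-1.33 and -0.16). Cd34 and Adora3 stayed on the microglial side in all 5. The cell type labels came from the same source in these cells, so the counts describe and do not test.

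Promoters were read because many called genes moved together. The RefSeq promoter table (GRCm38.p6, 250 bases before to 50 after the start) held 55 of the 74 macrophage genes and 155 of the 202 microglial genes, with 75 and 213 promoters. The box GAGGAAGT, of the type bound by PU.1 and other ETS factors, was found on either strand in 16 of 213 promoters of microglial genes (7.51%), 2 of 75 of macrophage genes (2.67%), 3.6% of promoters of measured genes and 3.2% of all 32851 promoters. TGCTGA, a site of Maf type, was in 22.7% of macrophage, 16.0% of microglial and 14.1% of measured promoters and in 19.5% of all. CTATTTATA was in 0, 1.41%, 0.322% and 0.429% in the same order, and CTAAAAATA (both of MEF2 type) and GTCTAGAC (SMAD type) were in 0 promoters of called genes. The motifs do not overlap one another as written, and a match is a run of letters and not a known binding site. The 250 bases before the start are shown for 2 microglial genes, Adora3 and Havcr2, with the box or its complement in capitals. Adora3 was almost absent from macrophages, whereas Havcr2 had a count in 16.1% of them and reached 19.2 CPM on plate 530s. The same is shown for Cxcr3, a chemokine receptor called in macrophages with log2 ratios of 1.64, 2.36 and 1.51 and chosen after its match was seen.
Adora3 (chr3:105904171-105904420, plus strand): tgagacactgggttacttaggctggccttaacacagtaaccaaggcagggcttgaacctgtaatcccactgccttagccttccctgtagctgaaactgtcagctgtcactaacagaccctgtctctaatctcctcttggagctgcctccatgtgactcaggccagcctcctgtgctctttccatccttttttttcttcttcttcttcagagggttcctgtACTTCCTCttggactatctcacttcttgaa
Havcr2 (chr11:46454681-46454930, plus strand): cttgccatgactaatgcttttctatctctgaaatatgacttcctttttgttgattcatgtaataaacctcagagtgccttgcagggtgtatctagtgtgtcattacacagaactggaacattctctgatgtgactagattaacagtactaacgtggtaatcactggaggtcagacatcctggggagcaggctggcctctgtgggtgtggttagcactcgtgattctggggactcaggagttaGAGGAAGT
Cxcr3 (chrX:101734148-101734397, minus strand): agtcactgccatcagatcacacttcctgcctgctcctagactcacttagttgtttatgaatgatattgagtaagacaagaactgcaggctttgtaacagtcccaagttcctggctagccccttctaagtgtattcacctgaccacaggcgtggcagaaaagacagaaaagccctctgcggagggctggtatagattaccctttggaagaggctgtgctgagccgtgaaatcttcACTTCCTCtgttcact
The box lay 23 to 30 bases before the start in Adora3, 1 to 8 in Havcr2 and 9 to 16 in Cxcr3. All of these promoters, those of Adora3 and Havcr2 included, were shown because they hold the box, so its presence in them is no result. The shares were 7.51% of microglial, 2.67% of macrophage and 3.6% of measured promoters.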

How the data were processed

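The authors deposited unnormalised read counts, with a column for each cell and rows for 53546 genes and 92 ERCC spike-ins. STAR was named in the submitters' processing notes, with no version. Build, annotation, counter and cell filters are not given in the sources used here. The 290 columns were matched to labels by name, and 0 held the same values as another.

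Counts per plate and cell type were summed and scaled to CPM with Python 3.11.15 and pandas 2.3.3. No animal was named, so no test was run and no p-value is given. Intervals are exact Poisson intervals and cover counting error only, and reads without molecular identifiers can be copies of 1 molecule.

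Members and the 43 gene lists (822 genes) were chosen with earlier results of these data known. Lists share members with one another and with the marker lists, so their calls are not separate. Counts of calls per list stand beside shares of 1.14% (macrophages) and 3.1% (microglia) over all measured genes. Named genes are the 12 called genes per direction with the largest smallest log2 ratio, 10 per direction outside all lists, up to 6 called members per list and direction (or the 2 most abundant), and 5 genes with opposite directions. Some genes within these rules were counted but are not reported here. Predicted, ribosomal, mitochondrial and sex-linked genes were not taken under the first, second and last part. Markers, and the few other list members given by log2 ratio or by pool values, were named after their values were seen. Exon overlaps were taken from GENCODE M21, which held 50067 of the symbols. Not every overlap is given beside its gene: Abi3 (with Gngt2, Phospho1 and Zfp652), Lat2 (with Rfc2) and Hvcn1 (with Tctn1) are among the other named genes that have them. No coordinates are given for counts because the authors' build is not known. Alternatives used TMM factors of edgeR 4.0.16 and size factors of DESeq2 1.42.0 in R 4.3.3, other floors, limits and pseudocounts, cell means and medians, thinned cells, and each plate left out.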

Additional observations from a re-analysis of the deposited data

Results flagged for a closer look

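In 590 of the 6515 measured genes, macrophages and microglia lay at least 2-fold apart in opposite directions in 2 plates. The 5 with the largest smaller log2 ratio are given here, and the difference between plates was not tested. Lgals3, galectin-3, had 50.3 CPM (macrophages) against 0.312 CPM (microglia) on plate 529s and 2.29 against 91.6 CPM on plate 530s, so that the smaller of the opposite log2 ratios was 4.81. Pecam1, an adhesion molecule of endothelium and leukocytes, was at 26.1 against 0 CPM on plate 529s and 0.255 against 68.6 CPM on plate 530s (4.76). On plate 059s Pecam1 was also higher in microglia, at 0.157 against 34.1 CPM. Its log2 ratios were -4.98, -5.5 and -5.51 in the Het pairs and -4.22 and -4.87 in the KO pairs. WT cells of plate 529s alone thus went the other way. Rnf24, a ring finger protein, was at 0 against 26.2 CPM on plate 529s and 25.9 against 0 CPM on plate 530s (4.75), and Mks1, a ciliary protein, at 0 against 59.2 CPM and 21.8 against 0 CPM (4.51). Vsig4, a complement receptor of resident macrophages, was at 0 against 19.1 CPM on plate 059s and 35.8 against 0 CPM on plate 529s (4.33). These genes were counted in few macrophages (6.64% to 17.1%), and 1 cell supplied 68.9%, 89.6% and 88.7% of the macrophage counts of Lgals3, Pecam1 and Vsig4. In microglia, Pecam1 had a count in 25.3% of cells, with 24.1% of its counts from 1 cell.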

How the results depend on the processing

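The main counts were 74 genes higher in macrophages and 202 in microglia at 2-fold, and 1350 and 1056 in the same direction regardless of size. With the median of cells in place of the sum, 1913 genes were measured, 374 were called in microglia, and 281 and 687 kept a direction. This also moved the macrophage share of all calls from 26.8% to 11.8% (50 macrophage calls). Without the top cell of each gene in each pool, macrophage calls were 115 and 656 genes were higher in microglia in every plate, a macrophage share of 40.5%. These settings also moved the median log2 ratio of measured genes over the 3 plates, from 0.07 to -0.37 and 0.22. A floor of 50 CPM gave 46 and 130 calls and 808 and 625 genes in 1 direction, and no floor gave 2655 and 1826 in 1 direction. Requiring a count in 50% of cells gave 38 macrophage calls, a 1.5-fold limit gave 255 and 348, and a 4-fold limit gave 3 and 92. Without the microglia in the macrophage range of marker sums, chosen after seeing the data, macrophage calls were 264, a share of 57.3%.

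Leaving out 1 plate asks for 2 plates in place of 3, so counts rose: macrophage calls ranged from 162 to 203, microglial calls from 293 to 340, and genes in 1 direction from 1914 to 2342 in macrophages and from 1601 to 1823 in microglia. Without plates 059s, 529s and 530s the macrophage calls were 203, 166 and 162, shares of 40.3%, 36.2% and 32.3%. TMM factors (78 and 199 calls), DESeq2 size factors (64 and 214) and thinned cells (56 and 191) stayed within 1.5 times, and 33 of the 56 macrophage calls in thinned cells were among the 74. Of 923 values for the 71 named called genes reported here, 703 moved by less than their spread over plates and 220 moved more, and none of these reversed. Among 12 alternatives, Ifi27l2a and Wfdc17 were called in 5, and Samd9l and Cd276 in 7. Every ratio was formed inside a plate, so the plates pair the cell types throughout, and no test was run because no label names the animals. The number of cells limits the smaller pools, where 3 counts are 0.935 CPM in microglia of plate 529s.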

Other observations

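The WT genotype also held 4 cells of a type that the labels name only 7, which entered no comparison. Their summed CPM of macrophage markers ran from 8387 to 25260 and of microglia markers from 9278 to 21710, and their counts per cell from 1940 to 138812.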
